A study of Mus musculus with 12 samples.

Results

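The microRNAs miR-221 and miR-222 come from neighboring hairpins on the X chromosome. Every arm of either hairpin listed in the deposited table was taken, which gave 4 of 1042 miRNAs, namely mmu-miR-221-3p, mmu-miR-221-5p, mmu-miR-222-3p and mmu-miR-222-5p. Small RNA of 18 to 30 nt was sequenced in 12 mouse libraries of 5 cell types. Mouse embryonic fibroblasts (MEFs, 3 libraries) were of the C57B6/129SvJae F1 background, and embryonic stem cells (ESCs, 3 libraries) were of the E14 line, of the 129/ola background. Induced pluripotent stem cells (iPSCs, 2 libraries) came from MEFs infected with dox-inducible lentivirus for Oct4, Sox2, c-Myc and Klf4. NT-ESCs (2 libraries) were derived from oocytes that had received a MEF nucleus, and NT-iPSCs (2 libraries) from enucleated oocytes that had received an iPSC nucleus. All 3 reprogrammed types shared the background of the MEFs, so that strain and cell type cannot be told apart in any comparison with ESCs. All pluripotent cells, ESCs included, were grown on irradiated MEF feeders with leukaemia inhibitory factor. Each type was a single line whose RNA was taken in several batches, so a p-value here measures only the spread between such batches.

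A miRNA hairpin is cut by Drosha and Dicer into a duplex of a 5p and a 3p arm, of which an Argonaute protein keeps one. The kept arm pairs with messenger RNAs mainly through its seed, bases 2 to 8. The 3p arms of miR-221 and miR-222 are the arms usually counted as the mature miRNAs, and they are known for repressing the CDK inhibitors p27 and p57 and the receptor tyrosine kinase Kit. The mature sequences below, from RefSeq on GRCm38.p6, are shown because the 3p arms share a seed and the 5p arm of miR-221 does not, which separates the arms in the same way as the read numbers described further on. Capitals mark the seed.

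miR-221-3p: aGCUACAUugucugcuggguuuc

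miR-222-3p: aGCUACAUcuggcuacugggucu

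miR-221-5p: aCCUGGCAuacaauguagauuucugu

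miR-1928: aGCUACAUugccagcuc

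The 3p arms were identical over their first 8 bases and at 11 of all 23 positions. A further miRNA of the table, miR-1928, carried the same seed, but at 17 nt it is shorter than the RNA that was sequenced, so its 0 reads in all 12 libraries say nothing of its level, and it was not tested. On the minus strand of the X chromosome, miR-221-3p lies at chrX:19146307-19146329, miR-221-5p at chrX:19146344-19146369 and miR-222-3p at chrX:19146901-19146923. The hairpins are shown to place the arms, with capitals for the arms given above.

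Mir221: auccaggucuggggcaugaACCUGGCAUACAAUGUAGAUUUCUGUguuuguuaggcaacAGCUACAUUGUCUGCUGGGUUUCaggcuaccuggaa

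Mir222: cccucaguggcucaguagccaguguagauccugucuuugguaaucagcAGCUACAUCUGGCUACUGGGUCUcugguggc

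Mir221 spans chrX:19146294-19146388 and Mir222 spans chrX:19146893-19146971, with 504 bases between them. In the GENCODE annotation of GRCm38, 0 other genes overlapped the pair. The next gene toward higher coordinates, the processed transcript Gm14636, lay 10009 bases away on the same strand, so the hairpins are intergenic.

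The authors deposited variance stabilized values (VST) on a log2 scale, from which whole read numbers could be recovered. A MEF library held 7867514 to 8608689 miRNA reads, an ESC library 4863365 to 5771398 and a reprogrammed library 5293867 to 7567263. Normalized reads are reads divided by the size factor of the library. A list of 14 miRNAs chosen from the miR-290 and miR-302 clusters, which mark pluripotent cells, summed to 0.869 to 12.4 CPM (reads scaled to library size) in MEFs and to at least 98834 CPM in any other library. In MEFs, 5 of the 14 listed had 0 reads in every library. The libraries of reprogrammed cells also stood apart from those of MEFs and ESCs in the share of reads lost as adaptors or as inserts of no length, by the sequencing summary of the study. No source names a batch that separates these libraries, but whatever set these shares and whether the cells were reprogrammed cannot be told apart, and no comparison across this division can be repeated within one side of it.

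Both 3p arms were higher, and both 5p arms lower, in each reprogrammed type than in ESCs and than in MEFs. MEFs stood above ESCs for all 4 arms. In the comparison of MEFs with ESCs, 4 of 4 arms passed an adjusted p of 0.05 (limma with Benjamini-Hochberg adjustment over 732 miRNAs), where 79.0% of all miRNAs tested did. When iPSCs, NT-ESCs and NT-iPSCs were compared with ESCs, 4 of 4 arms passed each time, where 75.8%, 75.8% and 77.6% of all miRNAs passed. Against MEFs, 4 of 4 arms passed for the same cell types, where 87.8%, 84.0% and 83.1% of all miRNAs passed. Most miRNAs thus differed in these comparisons, and the count of arms past the threshold does not set the pair apart. The libraries did not overlap for any arm in these 7 comparisons. The share of all miRNAs without overlap was not determined, so this does not set the pair apart either. Under 3 other scalings of the libraries, every one of these 28 differences kept its sign and its call.

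**Figure D1:**
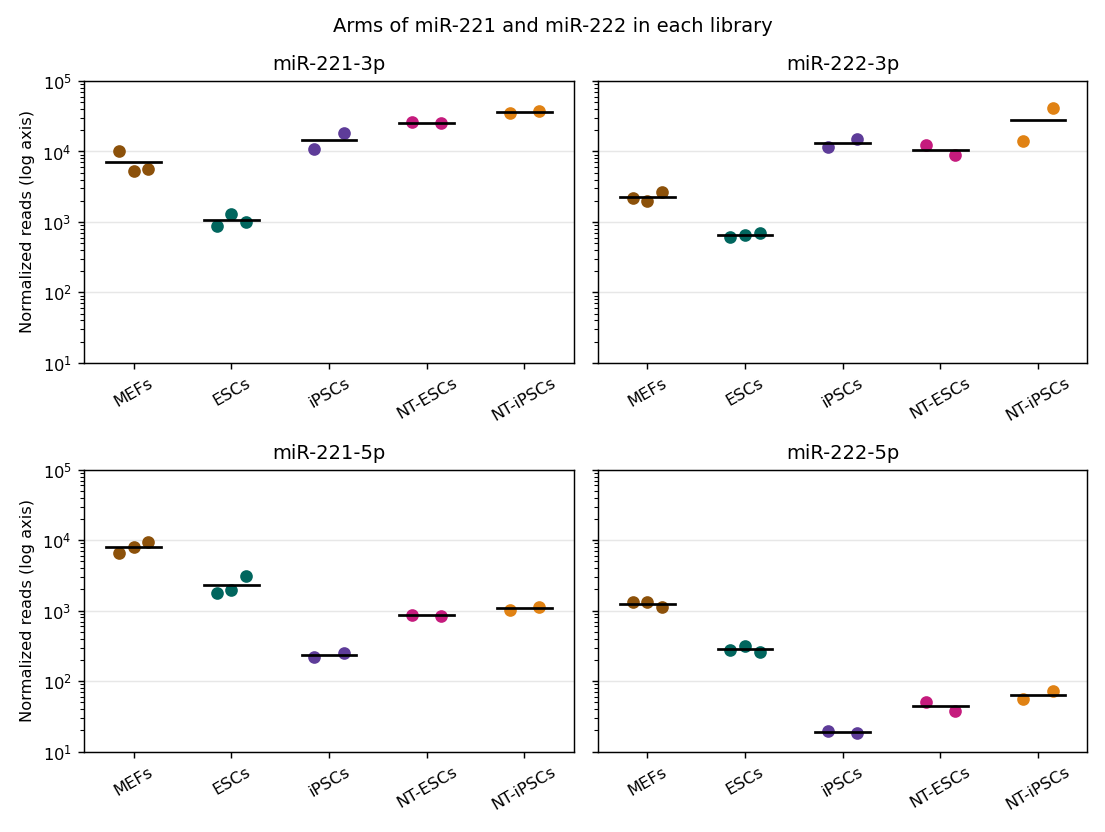
Normalized reads (log axis) of each arm in the 12 libraries, with 1 point per library and a line at the mean of each cell type. The 3p arms (top) were lowest in ESCs and highest in the reprogrammed types, while the 5p arms (bottom) were highest in MEFs and lowest in iPSCs.

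miR-221-3p had 10220.5, 5233 and 5735 normalized reads in the MEF libraries and 865, 1312 and 997 in the ESC libraries. The iPSC libraries held 11004 and 18136.5, the NT-ESC libraries 26298 and 25061, and the NT-iPSC libraries 35017 and 37542. Every reprogrammed library thus stood above every MEF library, and every MEF library above every ESC library, although the lowest iPSC library exceeded the highest MEF library only slightly. MEFs averaged 7063 ± 2746 and ESCs 1058 ± 229.8 normalized reads (SD, n = 3 each). The averages of iPSCs, NT-ESCs and NT-iPSCs were 14570.3 ± 5043, 25679.6 ± 874 and 36279.9 ± 1785 normalized reads (SD, n = 2 each). Against ESCs these means were 6.68-fold higher in MEFs, 13.8-fold in iPSCs, 24.3-fold in NT-ESCs and 34.3-fold in NT-iPSCs. On the VST scale, MEFs exceeded ESCs by 2.69 ± 0.27 (SE, adjusted p = 2.60e-06 by limma) and NT-iPSCs exceeded ESCs by 5.12 ± 0.30 (adjusted p = 3.07e-08). The smallest of the differences from MEFs was that of iPSCs, 1.07 ± 0.30 (adjusted p = 0.00583). Without iPSC replicate 63 it was 0.71 (adjusted p = 0.0865), and with libraries scaled to total miRNA reads it was 2.38. The order of levels ran from NT-iPSCs through NT-ESCs, iPSCs and MEFs to ESCs, in which NT-iPSCs and NT-ESCs (adjusted p = 0.334) and NT-ESCs and iPSCs (adjusted p = 0.0754) did not pass the test against each other.

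miR-222-3p, which carries the same seed, had 2203, 2005 and 2639 normalized reads in MEFs and 618, 663 and 701 in ESCs. It had 11631 and 15085 in iPSCs, 12331 and 8865 in NT-ESCs, and 14315 and 41443 in NT-iPSCs. The reprogrammed libraries lay above all MEF libraries, and the NT-iPSC libraries lay far apart from each other. Replicate 52 held the higher of the NT-iPSC values, whereas for miR-221-3p the same libraries lay close together. MEFs averaged 2282 ± 324 and ESCs 661 ± 41.4 normalized reads (SD, n = 3 each). The averages of iPSCs, NT-ESCs and NT-iPSCs were 13358 ± 2442, 10598 ± 2451 and 27879 ± 19183 normalized reads (SD, n = 2 each). Against ESCs the means were 3.45-fold higher in MEFs, 20.2-fold in iPSCs, 16.0-fold in NT-ESCs and 42.2-fold in NT-iPSCs. The last value depended on the library, since the VST difference of NT-iPSCs from ESCs was 5.20 ± 0.35 (SE), 4.44 without replicate 52 and 5.97 without replicate 51. On the VST scale iPSCs exceeded ESCs by 4.33 ± 0.35 (SE, adjusted p = 4.92e-07 by limma) and MEFs by 2.55 ± 0.35 (adjusted p = 3.35e-05). The reprogrammed types followed the order NT-iPSCs, iPSCs and NT-ESCs, and none of these types passed the test against another for this arm.

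miR-221-5p, from the opposite side of the miR-221 duplex, took the other direction in reprogrammed cells. It had 6554, 8065 and 9441 normalized reads in MEFs and 1759, 1946 and 3132 in ESCs. The iPSC libraries held 217 and 252, the NT-ESC libraries 864 and 846, and the NT-iPSC libraries 1008 and 1143. All 6 reprogrammed libraries lay below every ESC library, and the iPSC libraries below all others. MEFs averaged 8019.9 ± 1444 and ESCs 2279 ± 745 normalized reads (SD, n = 3 each). The averages of iPSCs, NT-ESCs and NT-iPSCs were 235 ± 24.7, 855 ± 12.6 and 1075 ± 95.1 normalized reads (SD, n = 2 each). Compared with ESCs, the means were 3.52-fold higher in MEFs, 9.72-fold lower in iPSCs, 2.67-fold lower in NT-ESCs and 2.12-fold lower in NT-iPSCs. On the VST scale iPSCs differed from ESCs by -3.23 ± 0.24 (SE, adjusted p = 2.19e-07 by limma) and from MEFs by -5.08 ± 0.24 (adjusted p = 2.64e-09). The order ran from MEFs through ESCs, NT-iPSCs and NT-ESCs to iPSCs, and only NT-iPSCs and NT-ESCs did not pass the test against their neighbor in it (adjusted p = 0.443).

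miR-222-5p was the least abundant of the 4 arms in each cell type. It had 1331, 1318 and 1119 normalized reads in MEFs and 273, 319 and 256 in ESCs, but 19.3 and 18.5 in iPSCs, 51.01 and 37.7 in NT-ESCs, and 55.9 and 73.2 in NT-iPSCs. These reprogrammed values rest on 24 to 84 reads per library. The groups of MEFs, ESCs and reprogrammed cells did not overlap. MEFs averaged 1256 ± 119 and ESCs 283 ± 32.5 normalized reads (SD, n = 3 each). The averages of iPSCs, NT-ESCs and NT-iPSCs were 18.9 ± 0.577, 44.4 ± 9.39 and 64.5 ± 12.2 normalized reads (SD, n = 2 each). Against MEFs the means were 66.4-fold lower in iPSCs, 28.3-fold in NT-ESCs and 19.5-fold in NT-iPSCs. On the VST scale iPSCs differed from MEFs by -6.00 ± 0.21 (SE, adjusted p = 2.75e-10 by limma) and from ESCs by -3.85 ± 0.21 (adjusted p = 1.81e-08). The VST compresses differences at low read numbers. The order of the cell types was that of miR-221-5p, and again only NT-iPSCs and NT-ESCs did not pass the test against their neighbor (adjusted p = 0.151).

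The balance between the arms of 1 hairpin can be read within a library, where it does not depend on scaling. Reads of miR-221-3p stood to those of miR-221-5p as 1.56, 0.649 and 0.608 in the MEF libraries and as 0.492, 0.674 and 0.318 in the ESC libraries. In iPSCs this ratio was 50.6 and 71.9, in NT-ESCs 30.4 and 29.6, and in NT-iPSCs 34.7 and 32.8. MEFs and ESCs therefore held the arms in numbers of the same order, with more 5p than 3p reads in all but 1 of these libraries, while the 3p arm made up nearly all reads of the hairpin in reprogrammed cells. For miR-222 the ratio of 3p to 5p reads was 1.66, 1.52 and 2.36 in MEFs and 2.26, 2.08 and 2.73 in ESCs. It was 591 and 799 in iPSCs, 240.0 and 232 in NT-ESCs, and 254 and 563 in NT-iPSCs. How efficiently each arm was ligated and amplified was not tested, so a ratio of reads is not a ratio of molecules.

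**Figure D2:**
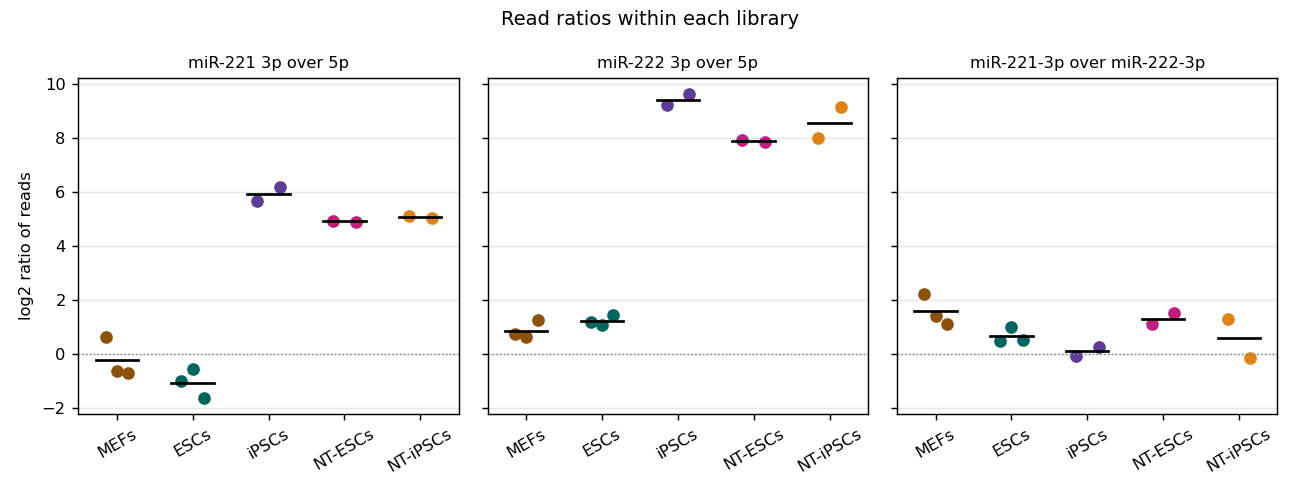
The log2 ratio of reads within each library for miR-221 (3p over 5p), miR-222 (3p over 5p) and the pair of 3p arms, with 1 point per library and a line at the mean of each cell type. The 6 reprogrammed libraries lay far above the MEF and ESC libraries in both arm ratios, whereas in the ratio of the 3p arms they overlapped both MEFs and ESCs.

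In reprogrammed cells the mean log2 arm ratio exceeded that of ESCs by 6.38 for miR-221 and by 7.40 for miR-222, and that of MEFs by 5.53 and 7.77. Each of these 4 differences had an exact two-sided permutation p of 0.0119, the smallest that 6 libraries against 3 allow, and an adjusted p of 0.0357 over 12 ratio tests. The permutation tests treat batches of the same line as separate units. Their p-values therefore do not cover variation between independent lines of a cell type. With 1 library left out the differences stayed between 5.29 and 7.96, but in 40 of 48 such tests the adjusted p was 0.0536 to 0.107, also in comparisons that lost no library of their own. A comparison that does lose one has fewer arrangements and thus a larger smallest p. The libraries did not overlap in any of them, but the same was true of 75.3% of 263 hairpins with both arms tested against ESCs and of 71.5% against MEFs. MEFs and ESCs overlapped in both arm ratios, and differed by 0.85 for miR-221 and by -0.37 for miR-222 (exact permutation p = 0.3 for each, with 0.1 as the smallest that 3 against 3 allow). Between MEFs and ESCs, 43.3% of the hairpins did not overlap. Against MEFs, the 9 pluripotent libraries together differed by 3.41 for miR-221 (exact permutation p = 0.173) and by 5.30 for miR-222 (exact permutation p = 0.0455, adjusted p = 0.0909). In that comparison the ESC libraries overlapped the MEF libraries for both hairpins, and 15.6% of all hairpins did not overlap.

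Shifts between the arms were common across hairpins in these libraries. The size of the shift in log2 arm ratio between reprogrammed cells and ESCs had a median of 2.67 over the 263 hairpins, and between reprogrammed cells and MEFs a median of 2.31. Between MEFs and ESCs the median size was 0.71. By size, miR-222 ranked 15 and miR-221 ranked 27 of 263 against ESCs, and they ranked 11 and 37 against MEFs. Both hairpins were thus among those with large shifts and neither had the largest. Both arms of a hairpin passed the limma test in opposite directions in 22.1% of the hairpins for iPSCs against ESCs, in 21.7% for NT-ESCs and in 25.5% for NT-iPSCs. Against MEFs these shares were 17.1%, 14.8% and 16.3%. In each of these 6 comparisons miR-221 and miR-222 were among such hairpins. For MEFs against ESCs the share was 2.28%, which is 6 hairpins, and neither miR-221 nor miR-222 was one of them. The shares of adaptor and empty reads divide the libraries in the same way, and what they have to do with the arm shift was not tested.

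**Figure D3:**
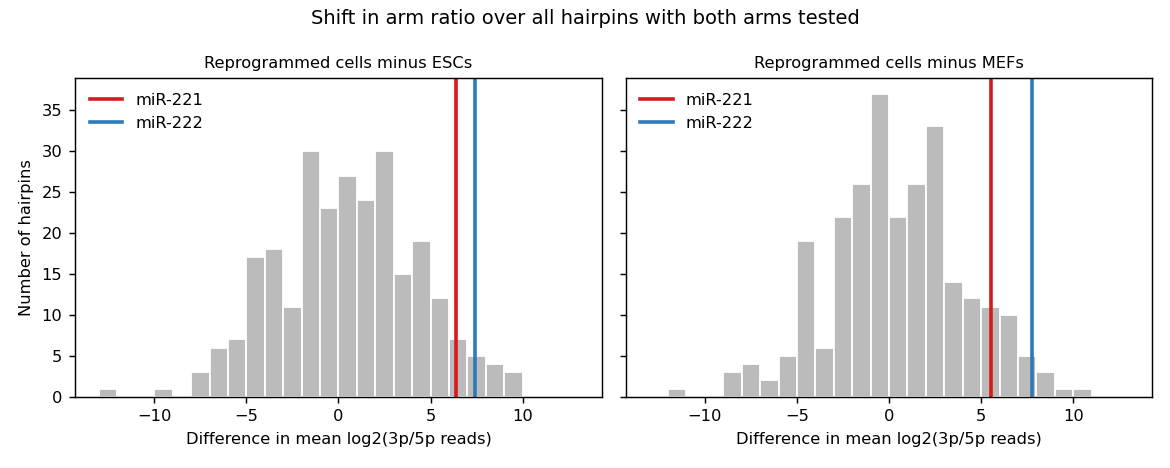
Histograms of the difference in mean log2 ratio of 3p to 5p reads for 263 hairpins, between reprogrammed cells and ESCs (left) and between reprogrammed cells and MEFs (right), with lines at miR-221 and miR-222. The distributions spread widely on both sides of 0, with both lines in the right tail.

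Since the 3p arms share a seed, their reads were also summed. Of all miRNA reads, the sum made up 0.0849% ± 0.0174 for MEFs and 0.0293% ± 0.00342 for ESCs (SD, n = 3 each). For iPSCs, NT-ESCs and NT-iPSCs it made up 0.631% ± 0.109, 0.646% ± 0.0773 and 1.01% ± 0.342 (SD, n = 2 each). The lowest reprogrammed library, at 0.554%, lay above the highest MEF library, at 0.104%. Of the reads of all 4 arms, the 3p arms held 49.6% ± 9.99 for MEFs and 40.7% ± 6.72 for ESCs (SD, n = 3 each), against 99.1% ± 0.160, 97.6% ± 0.159 and 98.2% ± 0.421 for the reprogrammed types in the same order (SD, n = 2 each). By rank among all miRNAs of a library, miR-221-3p lay between 68 and 98 in MEFs, the donor cells. It lay between 185 and 214 in ESCs and between 34 and 66 in reprogrammed cells. miR-222-5p lay between 166 and 177 in MEFs, between 298 and 319 in ESCs and between 425 and 541 in reprogrammed cells.

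The ratio between the 3p arms changed little beside these shifts. There were 4.64, 2.61 and 2.17 reads of miR-221-3p per read of miR-222-3p in MEFs and 1.40, 1.98 and 1.42 in ESCs. The ratio was 0.946 and 1.20 in iPSCs, 2.13 and 2.83 in NT-ESCs, and 2.45 and 0.906 in NT-iPSCs. MEFs lay above ESCs without overlap, by 0.91 on the log2 scale (exact permutation p = 0.1, the smallest the design allows). The 9 pluripotent libraries differed from MEFs by -0.92 with overlap (exact permutation p = 0.0409, adjusted p = 0.0909), or by -0.60 without MEF replicate 13. Between reprogrammed cells and ESCs the means were 0.65 and 0.66 on the log2 scale (exact permutation p = 1), while single reprogrammed libraries ranged on both sides of the ESC libraries. Across the 12 libraries, the VST values of the 3p arms had a Pearson r of 0.94 and those of the 5p arms one of 0.97. The arms of miR-221 had an r of -0.41 and those of miR-222 one of -0.69. These 12 points share their cell types, their scaling and the division by adaptor and empty reads, so the coefficients describe the libraries only.

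Among the reprogrammed types, the 5p arms were higher after nuclear transfer than in iPSCs. Against iPSCs, 2 of 4 arms passed the limma test in NT-ESCs, where 25.7% of all miRNAs did, and 3 of 4 in NT-iPSCs, where 26.5% did. miR-221-5p was 3.64-fold higher in NT-ESCs than in iPSCs, with a VST difference of 1.87 ± 0.26 (SE, adjusted p = 0.000608), and 4.59-fold higher in NT-iPSCs, with a difference of 2.19 ± 0.26 (adjusted p = 0.000136). miR-222-5p was 2.35-fold higher in NT-ESCs (adjusted p = 0.00404, or 0.0570 with only the cell types compared in the model) and 3.41-fold higher in NT-iPSCs (adjusted p = 0.000304). miR-221-3p differed from iPSCs by 1.36 ± 0.33 in NT-iPSCs (adjusted p = 0.0100), which became 0.999 without iPSC replicate 62 (adjusted p = 0.0891) and 1.31 without NT-iPSC replicate 52 (adjusted p = 0.0588). In NT-ESCs its difference was 0.86, with a 95% interval from 0.14 to 1.58 (adjusted p = 0.0754). With upper quartile scaling the same difference was 0.94 and passed (adjusted p = 0.0322), as did 0.86 by voom (adjusted p = 0.0253), while with total read scaling it was 0.50 (adjusted p = 0.169). That scaling also gave 0.82 for miR-221-3p in NT-iPSCs (adjusted p = 0.0306). For miR-222-3p the iPSC libraries overlapped those of both other types, with a difference of -0.34 in NT-ESCs (95% interval from -1.19 to 0.51, adjusted p = 0.573) and of 0.88 in NT-iPSCs (95% interval from 0.03 to 1.73, adjusted p = 0.130). With total read scaling these differences were -0.70 (adjusted p = 0.183) and 0.33 (adjusted p = 0.518). Without NT-iPSC replicate 51 the difference in NT-iPSCs was 1.65 (adjusted p = 0.00179), and without replicate 52 it was 0.11.

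**Figure D4:**
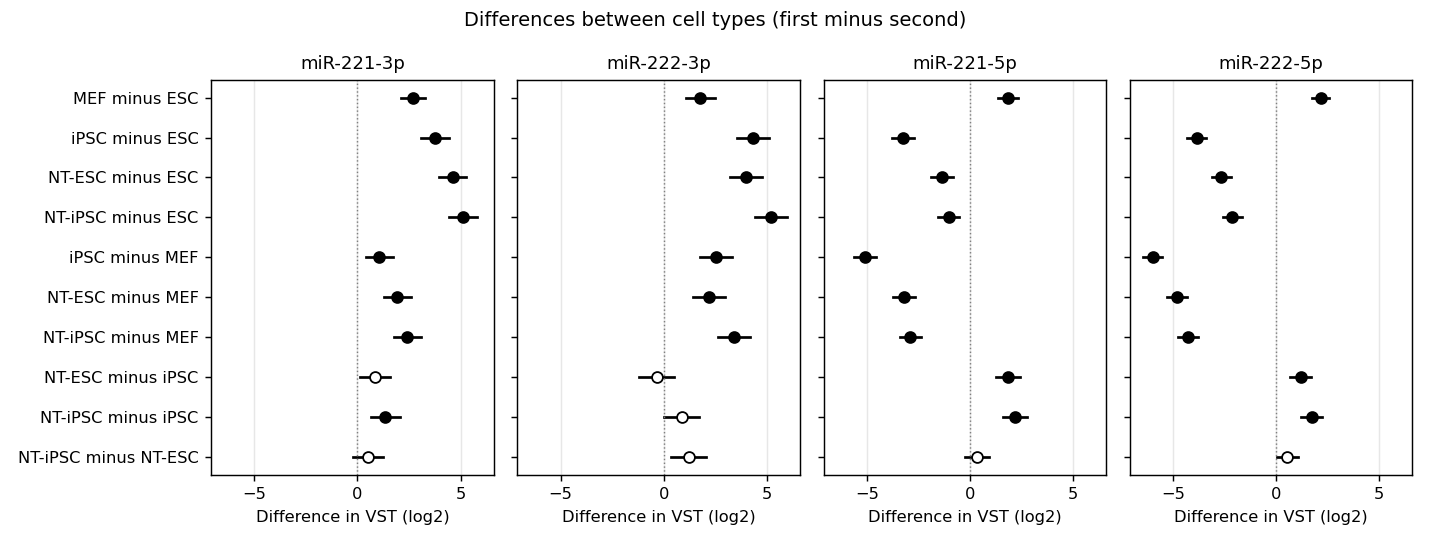
Difference in mean VST (log2) between cell types for each arm, first minus second, with 95% intervals from the limma model and filled points for an adjusted p under 0.05. The 3p arms lay to the right of 0 in all 7 comparisons with ESCs or MEFs, whereas the 5p arms lay to the left in the 6 that involve reprogrammed cells.

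NT-iPSCs and NT-ESCs could not be separated by the main test, in which 0 of 4 arms passed where 12.8% of all miRNAs did. Their libraries nevertheless did not overlap for any arm, with NT-iPSCs higher each time. The share of all miRNAs without overlap was not determined. At an unadjusted p of 0.05, 2 of 4 arms passed in limma (29.5% of all miRNAs did), and by voom 1 of 4 passed after adjustment (23.5% of all miRNAs did). That arm was miR-222-3p, with a difference of 1.22 ± 0.39 (SE, adjusted p = 0.0591 by limma and 0.0174 by voom), or of 1.99 without NT-iPSC replicate 51 and 0.45 without replicate 52. The differences of the other arms were 0.50 for miR-221-3p (95% interval from -0.22 to 1.22), 0.33 for miR-221-5p (95% interval from -0.25 to 0.91) and 0.54 for miR-222-5p (95% interval from 0.02 to 1.05).

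Nuclear transfer was applied to an iPSC nucleus and to a MEF nucleus, and the difference between a transferred line and its donor cells could be compared between both. The test took NT-iPSCs minus iPSCs, less NT-ESCs minus MEFs, in which 77.0% of all miRNAs passed. It gave 5.41 ± 0.36 (SE, adjusted p = 8.31e-08 by limma) for miR-221-5p and 6.53 ± 0.31 (adjusted p = 7.50e-09) for miR-222-5p. Both 5p arms thus stood above the iPSC level in NT-iPSCs and below the MEF level in NT-ESCs. Only the second of these differences crosses the division by adaptor and empty reads. A dependence on the donor cannot be told apart from that division. Most of each value restates the difference of iPSCs from MEFs, which was -5.08 for miR-221-5p and -6.00 for miR-222-5p. For the 3p arms the value was -0.57 (adjusted p = 0.252) for miR-221-3p and -1.33 (adjusted p = 0.0372) for miR-222-3p. The latter had an adjusted p of 0.0679 when only the 4 cell types compared entered the model, and lost its call in 7 of the 12 fits that leave out 1 library (adjusted p from 0.0503 without MEF replicate 13 to 0.135 without NT-iPSC replicate 51, where the value was -0.56). With libraries scaled to total miRNA reads the values were -2.06 (adjusted p = 0.000259) for miR-221-3p and -2.82 (adjusted p = 0.000415) for miR-222-3p.

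miRNAs known from fibroblasts and other mesenchymal cells were read beside the pair, because MEFs were both the donor cells and the feeders. All 15 of this list in the table passed the filter. In MEFs against ESCs, 15 of 15 were higher (39.1% of all miRNAs were), with a median difference of 2.36 where the median of all miRNAs was 0. In iPSCs against MEFs, 15 of 15 were lower (39.2% of all miRNAs were), with a median of -4.41 where that of all miRNAs was 0.46. With libraries scaled to total miRNA reads 11 of 15 were lower and 2 were higher, and miR-199a-3p (-1.07) and miR-199b-3p (-1.03) then changed sign. These miRNAs had nearly equal differences in every comparison, for example 1.845 for both in NT-ESCs against iPSCs. They may hold the same reads, so the counts of the list may include 1 molecule more than once. NT-ESCs against MEFs had 12 lower and 2 higher (279 and 336 of all 732 miRNAs), with a median of -2.83. NT-iPSCs against MEFs had 11 lower and 2 higher (266 and 342 of 732), with a median of -2.5. The higher ones were miR-199a-3p and miR-199b-3p both times. In NT-ESCs against iPSCs, 12 were higher and 3 did not pass, with a median of 1.53, and in NT-iPSCs against iPSCs 14 were higher and 1 did not pass, with a median of 1.91. Of all miRNAs, 12.6% and 13.4% were higher in the comparisons with iPSCs. Against ESCs, where both 5p arms were lower in every reprogrammed type, the list divided into 3 higher and 8 lower in iPSCs, and into 7 higher and 7 lower in NT-ESCs as well as in NT-iPSCs. Of all miRNAs, 39.8% were higher and 36.1% lower in iPSCs, 39.8% and 36.1% in NT-ESCs, and 41.1% and 36.5% in NT-iPSCs. Its summed level was 102486 to 133500 CPM in MEFs, 59258 to 66928 CPM in ESCs, 28476 to 30637 CPM in iPSCs, 70119 to 71666 CPM in NT-ESCs and 71783 to 83374 CPM in NT-iPSCs. No member of the list was at 0 reads in any cell type. In CPM, miR-221-5p stood at 7.13% to 7.21% of its MEF mean in iPSCs, 19.8% to 21.0% in NT-ESCs and 21.0% to 24.3% in NT-iPSCs. miR-222-5p stood lower, at 3.41% to 4.08% in iPSCs, 5.68% to 7.99% in NT-ESCs and 7.49% to 9.995% in NT-iPSCs. The 3p arms stood at 422% or more of their MEF means in every reprogrammed library. The part of fibroblast RNA in the levels of the 5p arms was not tested, and more RNA per cell and more cells of a type cannot be told apart in these bulk samples.

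Other miRNAs reported to repress p27 or p57, the cell cycle inhibitors targeted by the 3p arms, moved in both directions. Of 6 in the table, 3 were higher and 3 lower than in ESCs in each reprogrammed type. The shares of all miRNAs that were higher and lower are those given for the fibroblast list, so an even division is also that of the whole table. The median differences of iPSCs, NT-ESCs and NT-iPSCs from ESCs were -0.72, -0.38 and -0.09, where the medians of all miRNAs were 0.22, 0.25 and 0.12, and the last turned to 0.18 with upper quartile scaling. miR-25-3p, of the miR-106b cluster, was higher than in ESCs by 4.09, 4.50 and 4.01 (VST) in iPSCs, NT-ESCs and NT-iPSCs. miR-148a-3p was lower, with differences of -4.55, -4.53 and -4.62, and miR-24-3p likewise, with -2.78, -2.73 and -2.49. In MEFs against ESCs 4 of the 6 were higher and 2 lower (39.1% and 39.9% of all miRNAs), but with total read scaling 1 was higher and 3 were lower (22.1% and 52.7% of all miRNAs). Of 4 miRNAs reported to repress Kit, 3 in iPSCs and 2 each for NT-ESCs and NT-iPSCs were higher than in ESCs, and the others did not pass. The shares of all miRNAs that were higher were 39.8%, 39.8% and 41.1%, so 2 of 4 is near the background. The count for iPSCs was 1 with TMM-type scaling and 4 with total read scaling. The medians were 0.68, 0.45 and 0.90. miR-193-3p was among them, with differences of 3.76, 3.22 and 3.92. miR-34a-5p, a target of p53, had differences of 0.15, -0.16 and 0.31, none of which passed.

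The miRNAs whose VST values resembled those of the pair over the 12 libraries differed between the arms. For miR-221-3p the 5 with the highest Pearson r were miR-350-3p (r = 0.99), miR-31-3p, miR-23b-3p, miR-362-3p and miR-496-5p (r = 0.96). For miR-222-3p they were miR-34b-3p (r = 0.98), miR-485-5p, miR-382-3p, miR-433-5p and miR-154-5p (r = 0.97). miR-221-5p was closest to miR-214-3p (r = 0.99), miR-10a-5p, miR-145-3p, miR-29a-5p and miR-135a-5p (r = 0.97). miR-222-5p was closest to miR-10b-5p (r = 0.997), miR-29b-1-5p, miR-100-5p, miR-196b-5p and miR-132-3p (r = 0.99). The points fall into the cell types and share the division by adaptor and empty reads, and with Spearman's rho in place of Pearson's r only 1 to 3 of each 5 were kept.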

How the data were processed

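From adaptor-trimmed reads that had been filtered for quality and annotated, the authors normalized miRNA reads with DESeq and deposited variance stabilized values (VST) on a log2 scale. The submitters' processing notes name the build mm8, while aligner, miRBase release and DESeq version are not given in the sources used here. The VST was inverted, which gave whole reads (within 0.05 read) for 100% of the values above 0 (largest deviation 0.00349 read). Reads served for depth, ratios, filters and scalings. At these depths 3 reads, the limit that a count of 0 allows, stand for a CPM of 0.348 to 0.617, which covers counting error only.

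Cell types were compared with limma 3.58.1 (R 4.3.3) on the deposited VST in 1 model of all 12 libraries, with empirical Bayes moderation and a trend. Benjamini-Hochberg adjustment covered 732 miRNAs that reached 10 reads in 2 or more libraries, at a threshold of 0.05. All 4 arms passed this filter. Log2 ratios of reads (with 0.5 added to each count) were compared by exact two-sided permutation tests, adjusted over 12 tests. Alternatives were upper quartile, TMM-type (trimming 30% of log ratios and 5% of abundances) and total read scaling, no filter, a minimum of 100 reads throughout a cell type, log2 of normalized reads with 1 added, voom, no trend, only the cell types compared, and each replicate left out. The count tests of edgeR and DESeq2 were not run. The model was tested on simulated data. Ratios and figures were made in Python 3.11.15 (scipy 1.17.1, pandas 2.3.3, numpy 2.4.6, matplotlib 3.10.9).

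The arms and the lists of fibroblast, pluripotent, p27 or p57 and Kit miRNAs were chosen with earlier results of these data known. Named miRNAs are the 4 arms, those that share a seed with them, the 5 closest to each arm by Pearson r, and of each list the 3 with the highest mean VST, from which examples were drawn. Sequences and coordinates are from RefSeq (GRCm38.p6), where 804 of 1042 names and 3 of the 4 arms matched. Neighboring genes are from GENCODE M21.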

Additional observations from a re-analysis of the deposited data

Results flagged for a closer look

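The difference between a line made by nuclear transfer and its donor cells passed for 3 of the 4 arms as dependent on the donor, although the call for miR-222-3p was not stable, by the limma test of the difference itself, which 77.0% of all miRNAs passed. For miR-221-5p, NT-iPSCs minus iPSCs was 2.19 and NT-ESCs minus MEFs was -3.21, a difference of 5.41 (adjusted p = 8.31e-08). For miR-222-5p these values were 1.72 and -4.81, with a difference of 6.53 (adjusted p = 7.50e-09). Both kept their call in every alternative, each replicate left out included. For miR-222-3p the values were 0.88 and 2.20, with a difference of -1.33 (adjusted p = 0.0372). The call for miR-222-3p was lost in 7 of the 12 fits that leave out 1 library, namely without MEF replicate 13 (adjusted p = 0.0503) or 14 (0.0670), ESC replicate 3 (0.0519) or 4 (0.0504), iPSC replicate 63 (0.118), NT-ESC replicate 71 (0.131) or NT-iPSC replicate 51 (0.135). The value itself was -0.56 without NT-iPSC replicate 51 and -2.09 without NT-iPSC replicate 52 (adjusted p = 0.000191), and -2.82 with libraries scaled to total miRNA reads (adjusted p = 0.000415). The donors, iPSCs and MEFs, differ from each other for all 4 arms. iPSCs minus MEFs was -5.08 for miR-221-5p and -6.00 for miR-222-5p, which makes up most of their values. Only NT-ESCs minus MEFs crosses the division by adaptor and empty reads, so dependence on the donor and that division cannot be told apart.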

How the results depend on the processing

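No paired analysis was possible because no 2 cell types share a replicate number. Of 396 values of member differences under settings that keep all libraries, 385 kept direction and call, 5 lost the call, 6 gained it and 0 reversed. With a replicate left out, 513 of 528 kept both. The 24 ratio differences recomputed with a pseudocount of 1 or from the deposited VST kept both. Calls lost were NT-ESC minus iPSC of miR-222-5p (1.19, adjusted p = 0.0570) and NT-iPSC minus iPSC of miR-221-3p (1.36, adjusted p = 0.0656) with only the cell types compared, and the donor difference of miR-222-3p (-1.33) with no filter, no trend or only the cell types compared (adjusted p from 0.0591 to 0.0940). Calls gained were NT-ESC minus iPSC of miR-221-3p with upper quartile scaling (0.94) and voom (0.86), NT-iPSC minus NT-ESC of miR-222-3p with at least 100 reads (1.22), log2 reads (1.22) and voom (1.22), and the donor difference of miR-221-3p with total read scaling (-2.06). The cause was not tested.

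With a replicate left out, miR-221-3p ranged from 0.71 to 1.43 for iPSC minus MEF, from 0.50 to 1.22 for NT-ESC minus iPSC, from 0.999 to 1.72 for NT-iPSC minus iPSC, and from -0.93 to -0.21 for the donor difference. The range of miR-222-3p was 0.11 to 1.65 for NT-iPSC minus iPSC, 0.45 to 1.99 for NT-iPSC minus NT-ESC, and -2.09 to -0.56 for the donor difference. Arm ratios of reprogrammed cells ranged from 6.10 to 6.64 (miR-221) and 7.19 to 7.55 (miR-222) over ESCs, and from 5.29 to 5.97 and 7.56 to 7.96 over MEFs, where adjusted p-values rose above 0.05 (up to 0.107), also in comparisons that lost no library of their own. For pluripotent cells minus MEFs the miR-222 arm ratio ranged from 4.87 to 5.94 and passed without ESC replicate 2 or 3 (adjusted p = 0.0485), and the 3p ratio ranged from -1.14 to -0.60 and passed without NT-ESC replicate 72 (adjusted p = 0.0436). The 3p ratio of reprogrammed cells minus ESCs ranged from -0.17 to 0.16 and was positive without ESC replicate 3 (0.158), iPSC replicates 62 (0.142) or 63 (0.0733), or NT-iPSC replicate 52 (0.155).

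Total read scaling moved the median of all miRNAs from 0 to -0.80 for MEF minus ESC and from 0.46 to 1.76 for iPSC minus MEF. With it miR-221-5p, miR-222-3p and miR-222-5p exceeded ESCs in MEFs by 0.95, 0.89 and 1.26, and iPSCs exceeded MEFs by 3.86 for miR-222-3p, all still past the threshold. The share of calls that were higher fell from 49.5% to 29.6% for MEF minus ESC (37.8% with TMM-type scaling), from 48.9% to 25.1% for NT-ESC minus iPSC, from 50.5% to 21.0% for NT-iPSC minus iPSC, from 43.6% to 20.8% for NT-iPSC minus NT-ESC and from 46.3% to 29.9% for the donor difference. It rose from 55.4% to 68.1% for iPSC minus MEF and from 54.6% to 66.2% for NT-ESC minus MEF. miRNAs called numbered 188 for NT-ESC minus iPSC (111 and 103 without NT-ESC replicates 71 and 72), 194 for NT-iPSC minus iPSC (107 with only the cell types compared) and 94 for NT-iPSC minus NT-ESC (55 with no filter, 47 with only the cell types compared, 172 by voom, 8 to 130 with a replicate left out). By Spearman's rho 1 to 3 of the 5 closest miRNAs of each arm were kept.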
